A study of Mus musculus with 2 samples.

Results

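The cells described here are the Itm2a-rich portion of one thymocyte cluster, called the Itm2a-high part below. They were picked from the cluster numbers deposited with the count matrix. Cluster 6 of the grouping made at resolution 1.5 held 795 cells, and the grouping made at resolution 1.8 divided it into a group of 302 cells, a group of 448 cells and 45 others. The group with more of its transcripts from Itm2a, 2397 against 1481 CPM, was taken as the Itm2a-high part, and the group of 448 cells is called the Itm2a-lower part. Transcripts were counted as unique molecular identifiers (UMIs), and CPM is the number of UMIs of a gene when those of a group of cells are scaled to 1000000. The Itm2a-high part thus held 302 of the 13683 cells of the series, 142 of 6115 from WT and 160 of 7568 from KO. Itm2a chose the cells, and the clusters were made from these same cells' counts, so levels set beside other clusters are given as a description.

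The thymus receives T cell progenitors that become double-positive (DP) cells, which carry both coreceptors, CD4 and CD8, on the surface and rearrange the genes of the T cell receptor (TCR). DP cells whose TCR binds self-peptide on MHC are positively selected. They switch on Itm2a, a small transmembrane protein, with Cd69 and Cd5, stop expressing the recombinase gene Rag1, move to the medulla and become single-positive (SP) cells with one coreceptor. Late SP cells switch on Klf2, the transcription factor that drives S1pr1, a receptor the cells need to leave the thymus.

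The WT library came from the thymi of 5 Cdc42f/f mice and the KO library from those of 5 Cdc42f/f CD4Cre littermates. All were 6 weeks old and carried the loxP-flanked Cdc42 allele. Cdc42, a small GTPase that organises actin, loses exon 2 in the KO mice once Cre is made from the CD4 promoter, which is active from the DP stage on. Cells of the 5 mice were pooled before droplet capture, which leaves 1 library per genotype, so no difference below has a replicate check or a test, and intervals (95%, exact) cover counting error only. Transcripts were captured and counted at their 3′ ends.

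The Itm2a-high part was well covered. WT cells held 735503 UMIs in all, with a median of 4821 per cell (1835 to 11558) and 1999.5 genes per cell. KO cells held 902184 UMIs, with a median of 5221.5 (2455 to 14373) and 2164 genes. A median of 4.21% of a WT cell's UMIs and 4.39% of a KO cell's were mitochondrial. Of the 17 cell barcodes that both libraries shared, 1 belonged to a cell of the Itm2a-high part.

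Of the 3 genes given as markers of these cells, Itm2a alone was at its highest in them among the groups compared. Itm2a stood at 2523 CPM in WT and 2294 CPM in KO, against 1315 and 1906 CPM in the Itm2a-lower part and 778 and 488 CPM in clusters 5 and 9 together, which held the most Cd5. It was at 167 and 128 CPM in cluster 7, which held the most Ms4a4b, a gene of late SP cells. Clusters 0 to 2, rich in Rag1, had 21.3 and 20.8 CPM. An Itm2a UMI was found in 133 of 142 WT cells (93.7%) and 144 of 160 KO cells (90%), far above the 5.14% and 5.84% of clusters 0 to 2. Thinning each cell to 2000 UMIs left shares of 86.5% and 82.5%, beside 3.74% and 3.61% in clusters 0 to 2.

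The gene was nonetheless uneven from cell to cell. Per 10000 UMIs, the median WT cell held 20.6 Itm2a UMIs, with quartiles at 6.29 and 37.1, a highest value of 107 and 9 cells at 0. The median KO cell held 16.6, with quartiles at 6.34 and 34.6, a highest value of 102 and 16 cells at 0. The Itm2a-lower part had medians of 7.11 and 10.7 and a range up to 221, so single cells of both parts overlapped widely. Just outside the boundary, 57 cells that the finer grouping put with the Itm2a-high part belonged to cluster 5 in the coarser one, and their Itm2a level was 2354 CPM.

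Cd69, an early activation antigen that holds cells in the thymus, reached 345 CPM in WT and 252 CPM in KO, below the 410 and 386 CPM of clusters 5 and 9. Cd5, a damper of TCR signals whose level follows their strength, was at 356 and 473 CPM, whereas clusters 5 and 9 held 1084 and 1018 CPM. Ccr9, a chemokine receptor of DP and early SP cells, was at 1683 and 1793 CPM, near the 1874 and 1854 CPM of clusters 5 and 9 and above the 620 and 1062 CPM of the Itm2a-lower part. Rag1 was low, at 132 and 150 CPM against 3251 and 2985 CPM in clusters 0 to 2. Of the late SP genes, Ms4a4b and H2-K1, an MHC class I heavy chain, were low. Ms4a4b was at 59.8 and 48.8 CPM against 1591 and 1874 CPM in cluster 7. H2-K1 was at 89.7 and 113 CPM against 1659 and 1567 CPM. Other late SP genes were well read: 22 genes of that list had at least 20 UMIs, and the list summed to 8117 and 8385 CPM. Rag1 was at 239 and 255 CPM in clusters 5 and 9 and at 57.7 and 78.7 CPM in the Itm2a-lower part. H2-K1 was at 25.1 and 43.0 CPM, then 716 and 440 CPM. By these 2 genes the Itm2a-high part lay between clusters 5 and 9 and the Itm2a-lower part in both libraries. By Itm2a in both libraries and by Klf2 in WT it did not, so no order of stages is read.

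**Figure D1:**
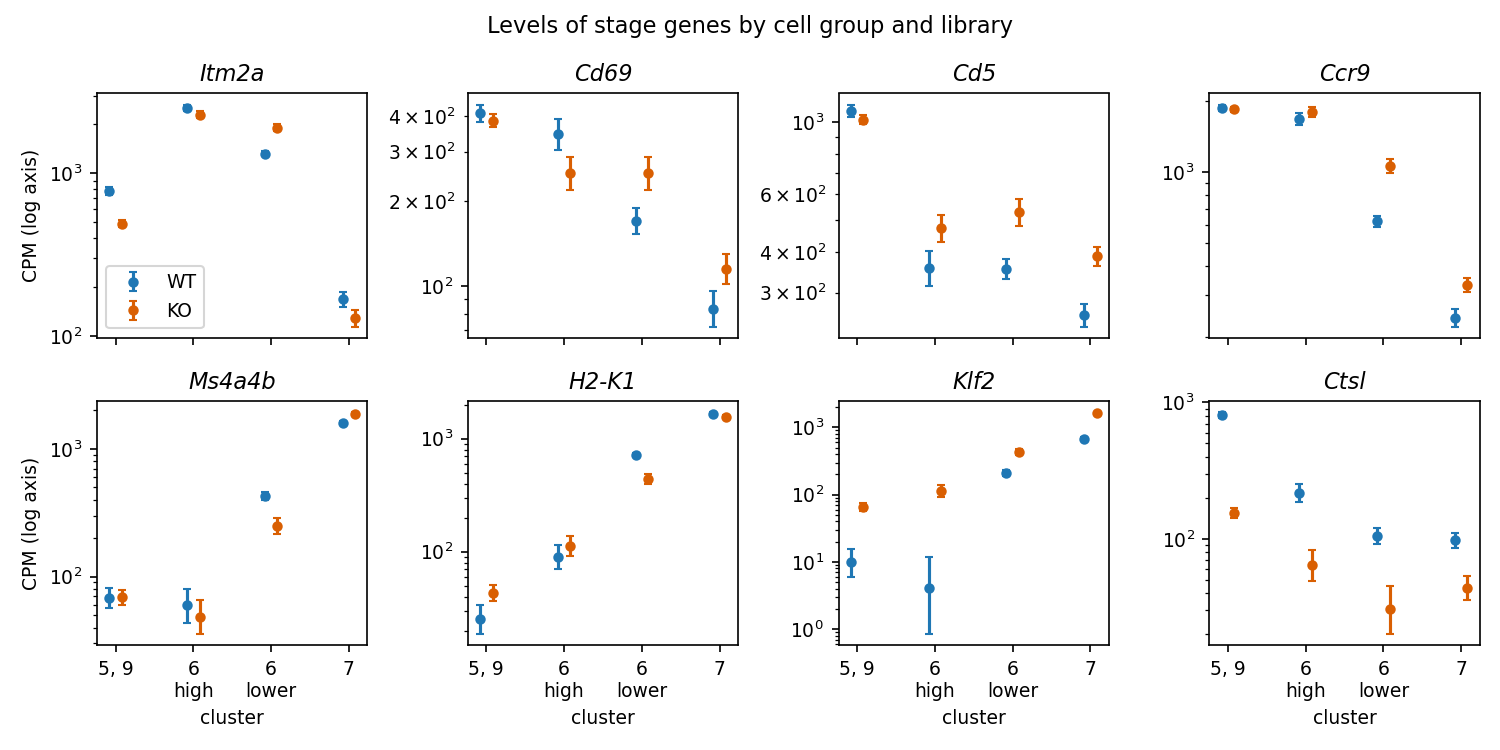
Levels of 8 genes in CPM (log axes) in clusters 5 and 9, the Itm2a-high and Itm2a-lower parts of cluster 6, and cluster 7, with WT in blue and KO in orange; points are sums over the cells of 1 pooled library, and bars are 95% Poisson counting intervals. Itm2a peaks in the Itm2a-high part in both libraries (2523 and 2294 CPM), Cd5 is highest in clusters 5 and 9, and Klf2 is at 4.08 CPM in WT and 114 CPM in KO in the Itm2a-high part.

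The coreceptor genes did not give a plain SP pattern. Among WT cells 40.8% (32.7 to 49.4%) had UMIs of Cd4 and of Cd8a or Cd8b1 together, 20.4% of Cd4 only, 24.6% of Cd8 genes only, and 14.1% of neither. In KO these shares were 50% (42.0 to 58.0%), 18.8%, 21.2% and 10.0%. Cells with UMIs of both coreceptors were thus the most frequent kind in both libraries at full depth. Thinned to 2000 UMIs per cell, the shares with both were 19.9% in WT and 23.8% in KO as fewer UMIs were kept, and those with neither 31.2% and 24.4%, so that cells with both were no longer the most frequent. At that depth clusters 0 to 2 had both in 65.9% and 70.2% of cells and the Itm2a-lower part in 10.2% and 10.9%. Clusters 15 and 16, mainly B and myeloid cells, had both in 10.7% of 28 WT and 9.21% of 76 KO cells at that depth. At full depth they had both in 6.45% of WT and 13.97% of KO cells, at median depths of 979 and 2739.5 UMIs. Whether some of these cells express coreceptor genes themselves was not tested. At full depth clusters 0 to 2 had both in 74.0% and 81.8% of cells at 2629 and 2956 UMIs, and Cd4 only in almost none. The cells are accordingly called by the gene of their rule here, and not SP cells of either lineage.

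The constant genes of the TCR β chain separated the Itm2a-high part from the rest of its cluster more than Itm2a did. Each productive β chain uses either Trbc1 (chr6:41538218-41539881, plus strand) or Trbc2 (chr6:41546730-41548352, plus strand; GENCODE vM21, GRCm38). Their coding sequences are nearly identical, so how reads were divided between them is uncertain. Trbc1 was at 4770 CPM in WT and 4674 CPM in KO in the Itm2a-high part, against 1218 and 1202 CPM in the Itm2a-lower part. Taken over both libraries this was the largest ratio among the 3588 genes with at least 200 UMIs in both parts together, a log2 of 1.96, and it was 1.97 within WT and 1.96 within KO.

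Trbc1 was read in each of the 142 WT and 160 KO cells of the Itm2a-high part. Only 5.63% of WT cells and 8.75% of KO cells had less than 10% of their Trbc UMIs from Trbc1. In the Itm2a-lower part 63.6% and 73.5% of cells did, in cluster 9 97.8% and 97.9%, and in cluster 5 5.63% and 5.05%. In cluster 7 the shares were 36.0% and 38.9%, and in clusters 0 to 2 29.3% and 25.5%. The Itm2a-high part and cluster 5 thus consisted mostly of cells with ample Trbc1, and the Itm2a-lower part and cluster 9 mostly of cells with little. Among cells of the Itm2a-lower part with less than 10% Trbc1, Itm2a was at 1618 CPM in WT and 2347 CPM in KO, and among its other cells at 882 and 1007 CPM. The 2347 CPM of the KO cells was above the 2294 CPM of the Itm2a-high part itself.

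**Figure D2:**
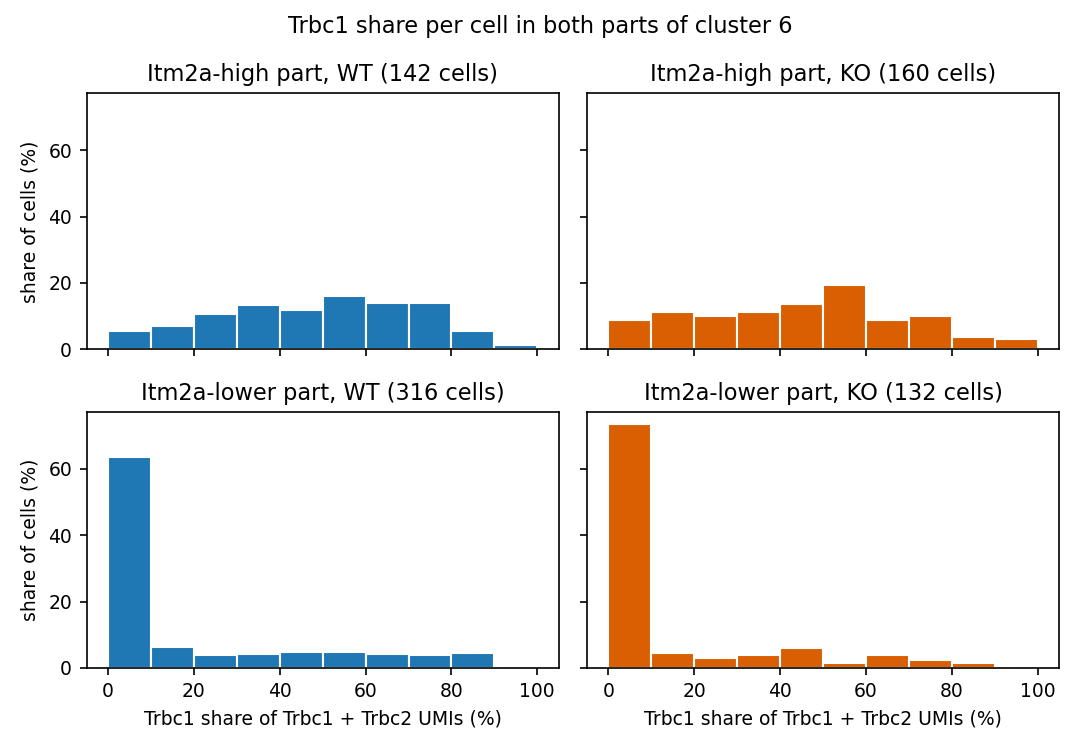
Share of each cell's Trbc1 and Trbc2 UMIs that came from Trbc1 (x axis, %, in steps of 10) against the share of cells (y axis, %), for WT (blue) and KO (orange), with the Itm2a-high part above and the Itm2a-lower part below. Cells under 10% make up 5.63% and 8.75% of the Itm2a-high part and 63.6% and 73.5% of the Itm2a-lower part.

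Beside Trbc1, the genes with the largest ratio of the Itm2a-high over the Itm2a-lower part were Arpp21 (log2 of 1.71), a DP-stage RNA-binding protein gene, Gm14718 (1.38), Slc9a9 (1.36), an endosomal sodium-proton exchanger, Rbl2 (1.34), Abcc5 (1.28), Pik3ca (1.23), Ccr9 (1.23), Setd7 (1.19) and Ifngr1 (1.17). The lowest ratios belonged to Cd7 (-4.04), Nkg7 (-3.64), a granule protein of cytotoxic cells, Tnfrsf4 (-3.50), the OX40 receptor, Slfn1 (-2.99), Ms4a4b (-2.81), Isg15 (-2.73), Ifit1 (-2.71), H2-K1 (-2.63), Ccnd2 (-2.58) and Ctss (-2.49). The median over all 3588 genes was 0.13.

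Cdc42 itself (chr4:137319696-137357720, minus strand) had 346 UMIs in WT and 336 in KO, or 470 and 372 CPM, a log2 ratio of KO over WT of -0.34 (-0.56 to -0.12). Counts at the 3′ end lie outside the deleted exon and do not check the labels, so each direction below rests on the labels as deposited.

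Cells of the Itm2a-high part made up 2.32% (1.96 to 2.73%) of the WT library and 2.11% (1.802 to 2.46%) of the KO library, a ratio of 0.910 (0.722 to 1.15). The Itm2a-lower part made up 5.17% and 1.74%, a ratio of 0.338 (0.273 to 0.415). Cells of the Itm2a-high part accordingly formed 29.6% of cluster 6 in WT and 50.6% in KO. Among cells with at least 10% of Trbc UMIs from Trbc1, the ratio of shares was 0.880 (0.692 to 1.12) for the Itm2a-high part and 0.246 (0.163 to 0.362) for the Itm2a-lower part, and among the other cells it was 1.41 (0.554 to 3.89) and 0.390 (0.303 to 0.499). Genes that separate the 2 parts, among them Rbl2, Ms4a4b and H2-K1, differed between the libraries within one part or the other. Whether such differences moved cells across the line that the clustering drew was not tested. These sizes are given as counts of cells only.

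Within the Itm2a-high part, genes were compared as summed UMIs of the KO over the WT library, with 0.5 UMI added to each sum before the log2 ratio. Among 2787 genes with at least 100 UMIs, 80 (2.87%) were more than 1.5-fold higher in KO and 38 (1.36%) more than 1.5-fold lower. With DESeq2 size factors in place of total UMIs the split was 61 higher and 54 lower, and with totals that leave out ribosomal protein and mitochondrial genes 61 and 51, so the excess of higher genes depended on the scaling. The median log2 ratio of the 7353 genes with at least 20 UMIs was 0.06. In the other cell groups more genes passed the same fold on the higher side than on the lower: 300 and 109 of 4242 in the Itm2a-lower part, 138 and 26 of 6186 in clusters 5 and 9, and 818 and 149 of 5414 in cluster 7. The Itm2a-high part held fewer UMIs than each of these groups, so fewer of its genes could be read.

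Klf2 (chr8:72319033-72321656, plus strand) had the largest ratio. WT cells held 3 Klf2 UMIs (4.08 CPM) and KO cells 103 (114 CPM), a log2 ratio of 4.59 (3.22 to 7.11). The KO UMIs lay in 40 of 160 cells (25%, 18.5 to 32.4%), with 13 in the richest cell and 39 in the 5 richest, and the WT UMIs in 3 of 142 cells (2.11%, 0.438 to 6.05%). In clusters 0 to 2, where Klf2 should be absent, 1.13% of WT cells and 4.46% of KO cells had a UMI. The WT share is read as background, whereas the KO share was above it. After thinning to 2000 UMIs the shares were 0.709% and 14.4% in the Itm2a-high part and 0.702% and 3.36% in clusters 0 to 2.

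Klf2 was higher in the KO library in the neighbouring cells too. In clusters 5 and 9 it was at 9.95 CPM in WT and 65.2 CPM in KO (log2 of 2.68, 2.03 to 3.47), in the Itm2a-lower part at 212 and 430 CPM (1.02, 0.82 to 1.22), and in cluster 7 at 679 and 1626 CPM (1.26, 1.17 to 1.34). The difference between the groups was not tested. In WT, Klf2 was under 10 CPM up to the Itm2a-high part and far higher in the Itm2a-lower part, while in KO it was already above 60 CPM in clusters 5 and 9.

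KO cells with and without a Klf2 UMI were set side by side for 13 genes. The 40 KO cells with a Klf2 UMI and the 120 without one had Itm2a at 2332 and 2280 CPM, Ms4a4b at 45.2 and 50.1 CPM, and Il7r, the IL-7 receptor α chain, at 206 and 291 CPM. S1pr1, a direct Klf2 target, had 0 UMIs in the cells with Klf2, with an upper interval bound of 15.2 CPM, 1 in those without, and 0 in WT, where a count of 0 allows up to 4.08 CPM. Ccr7, the medullary homing receptor, was at 115 (76.5 to 166) and 75.9 (56.3 to 100) CPM. Emp3, a small membrane protein, was at 152 and 85.0 CPM, Lgals1, which encodes galectin-1, at 230 and 100 CPM, Vim, the intermediate filament vimentin, at 769 and 610 CPM, and H2-K1 at 173 and 91.0 CPM. Median depths of the 2 sets were 5619.5 and 5172 UMIs. For Lgals1 (174 to 299 against 77.4 to 127 CPM) and H2-K1 (125 to 234 against 69.5 to 117 CPM) the counting intervals did not overlap and the cells with Klf2 were higher. For Ccr9 they did not overlap either, and the cells with Klf2 were lower, at 1485 (1336 to 1646) against 1907 (1803 to 2016) CPM. For the other 10 genes, Itm2a, Ms4a4b, Ccr7, Il7r, Emp3 and Vim among them, the intervals overlapped. The 2 sets were defined by a measured gene, so these values are a description.

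The promoters of Klf2 and Itm2a are shown because Itm2a is the gene that chose these cells and Klf2 had their largest ratio of KO over WT. Sequences come from the RefSeq promoter windows (GRCm38.p6) and end just before the GENCODE start of each gene. They are read 5′ to 3′ on the gene's strand, with motifs in capitals. Both strands were searched for GGGCGG, the GC box bound by Sp1-family and Klf-family proteins, and for the MEF2 consensus, the site of factors that drive Klf2 in other cells.

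Klf2 (chr8:72318812-72319032, plus strand): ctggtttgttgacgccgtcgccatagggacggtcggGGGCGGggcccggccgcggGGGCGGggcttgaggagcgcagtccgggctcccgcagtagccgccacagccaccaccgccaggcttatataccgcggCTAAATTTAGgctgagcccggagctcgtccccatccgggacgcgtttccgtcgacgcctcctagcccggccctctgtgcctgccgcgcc

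Itm2a (chrX:107403377-107403610, minus strand): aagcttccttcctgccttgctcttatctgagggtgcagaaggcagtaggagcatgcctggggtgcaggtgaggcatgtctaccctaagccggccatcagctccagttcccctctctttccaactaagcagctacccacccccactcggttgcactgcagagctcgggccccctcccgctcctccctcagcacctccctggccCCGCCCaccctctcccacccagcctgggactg

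The Klf2 stretch held 1 match of the MEF2 consensus, the last of its stretches in capitals, and 2 copies of GGGCGG. The Itm2a stretch held 1 GC box, on its opposite strand, and no MEF2 match. Among 32851 mouse promoters the 250 bases upstream held the MEF2 consensus in 167 (0.508%) and GGGCGG in 10756 (32.7%). A match describes the letters and not binding.

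Ctsl (chr13:64359337-64370890, minus strand), a lysosomal cysteine protease, was the gene most reduced in KO. It had 160 UMIs in WT and 58 in KO, or 218 and 64.3 CPM, a log2 ratio of -1.75 (-2.22 to -1.32). Ctsl was read in 47.2% of WT and 26.2% of KO cells, and in 26.2% and 9.38% after thinning to 2000 UMIs. The WT level itself was well below that of clusters 0 to 2, where Ctsl was at 2339 and 330 CPM (log2 of -2.82), and of clusters 5 and 9, at 806 and 154 CPM (-2.39). The Itm2a-lower part had 105 and 30.6 CPM (-1.76). Ctsl was lower in the KO library in each of these groups and in cluster 7.

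Next after Klf2 came Anxa2, whose protein binds membranes in the presence of calcium. It had 22 UMIs in WT and 91 in KO, a log2 ratio of 1.73 (1.07 to 2.50), and was read in 12.0% and 35% of cells. Anxa2 was also higher in the Itm2a-lower part (2.18) and cluster 7 (2.13), but close to level in clusters 5 and 9 (0.08, -0.11 to 0.28) and clusters 0 to 2 (0.16). Emp3 had 35 and 93 UMIs (1.10, 0.54 to 1.72) and Lgals1 49 and 122 (1.01, 0.53 to 1.53), and both were higher in the KO library in every group compared, though Emp3 was lower in KO (-0.92) in the few cells of the Itm2a-high part with Cd4 and no Cd8 UMI.

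Rab6a, a GTPase of Golgi transport, had 31 and 82 UMIs (1.09, 0.50 to 1.75), against a log2 ratio of 0.00 in clusters 5 and 9 and 0.18 in the Itm2a-lower part. Rbl2, the pocket protein p130 that restrains cell division, had 56 and 138 UMIs (1.00), and its ratio was 0.25 in the cells with Cd4 and no Cd8 UMI. Tubb2b, a β-tubulin, had 33 and 81 UMIs (0.99), and Ppp2r1a, the scaffold subunit of phosphatase PP2A, 42 and 102 (0.98). With cells thinned to 2000 UMIs Ppp2r1a was at 0.37 and no longer past 1.5-fold. The gene model Gm37593 had 32 and 78 UMIs (0.98). mt-Nd3, a mitochondrial subunit of respiratory complex I, had 85 and 204 UMIs (0.96), and its log2 ratio was between 1.13 and 1.29 in the other groups. Vim, singled out after its values were seen, had 248 and 589 UMIs (0.95, 0.74 to 1.17) and was read in 69.7% of WT and 86.2% of KO cells.

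Several of the lower genes rested on a few WT cells. Ikzf2, which encodes Helios and follows strong TCR signals, had 124 UMIs in WT and 81 in KO (-0.91, -1.33 to -0.49). Yet Ikzf2 was read in 14.1% of WT and 23.8% of KO cells, and 83 of the 124 WT UMIs were in 5 cells, so no order is read from it. Nrgn, a calmodulin-binding protein, had 112 and 79 UMIs (-0.80), with 109 of the WT UMIs in 5 cells, and its sign turned without the 5% of cells with most UMIs. The gene model Gm12840 had 88 and 52 UMIs (-1.05) in 13 and 10 cells.

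The remaining lower genes were spread over more WT cells, from 39 for Ier5 to 67 for Prkacb. Dhx30, an RNA helicase, had 62 and 40 UMIs (-0.92), Lyar, a nucleolar protein, 69 and 46 (-0.87), Prkacb, a catalytic subunit of protein kinase A, 106 and 73 (-0.83), Ier5, an immediate early gene, 64 and 45 (-0.80), and Gtf2b, the transcription factor TFIIB, 83 and 59 (-0.78). With cells thinned to 2000 UMIs Lyar was at -0.37 and no longer past 1.5-fold. Rps10-ps1 had 91 and 64 UMIs (-0.80), and as a pseudogene it may share reads with Rps10. In the Itm2a-lower part, the log2 ratios of Dhx30, Lyar, Prkacb and Ier5 lay between -0.12 and 0.16, and Gtf2b was higher in KO (0.59). Prkacb (0.33) and Gm12840 (1.94) turned higher in KO in cells of the Itm2a-high part with Cd4 and no Cd8 UMI.

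**Figure D3:**
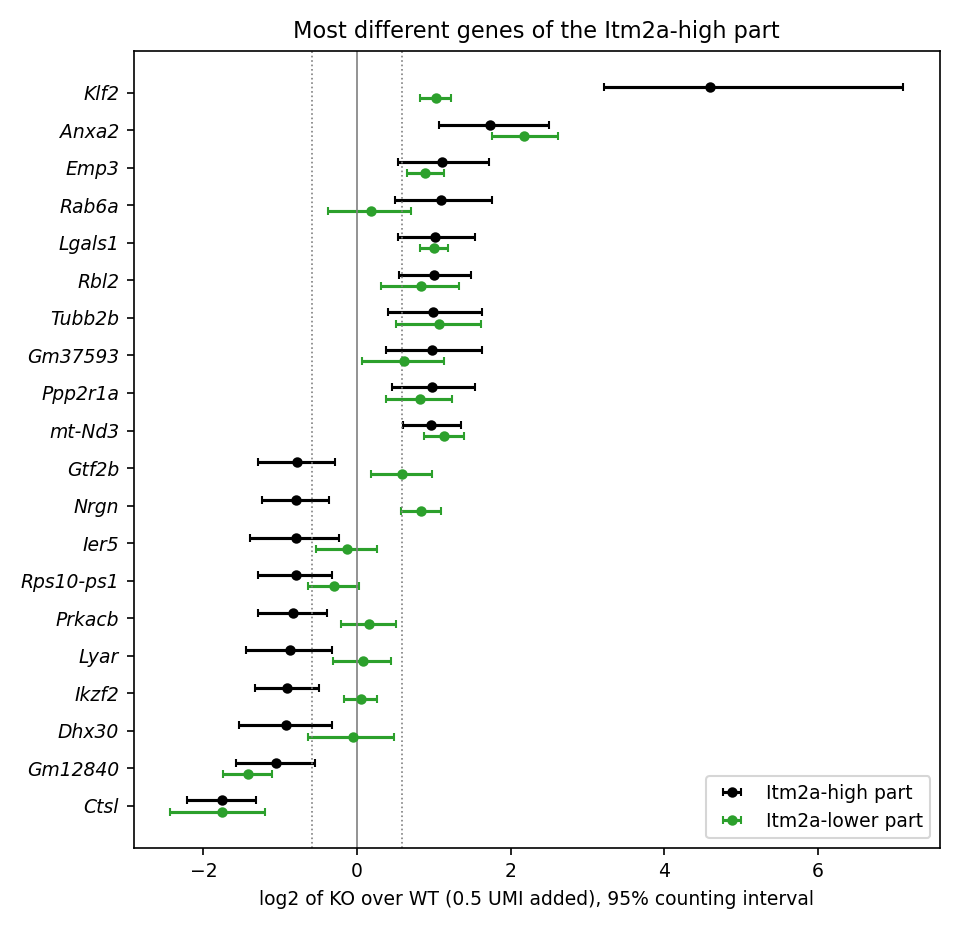
Log2 ratio of KO over WT (x axis) of the 10 highest and 10 lowest genes of the Itm2a-high part with at least 100 UMIs, in the Itm2a-high part (black) and the Itm2a-lower part (green); bars are 95% counting intervals and dotted lines mark 1.5-fold. Klf2 (4.59) and Ctsl (-1.75) stand at the ends, and Gtf2b and Nrgn lie on opposite sides of 0 in the 2 parts.

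Genes of positive selection and TCR signalling were near level as a list. Of 20 genes 18 had at least 20 UMIs, 8 were above 0, and their median log2 ratio was -0.03, beside 0.06 for all genes. Itm2a had 1856 UMIs in WT and 2070 in KO (-0.14, -0.23 to -0.05), Cd69 254 and 227 (-0.46, -0.72 to -0.19), and Cd5 262 and 427 (0.41, 0.18 to 0.64). The share of cells with a Cd69 UMI was the same, 48.6% and 48.8%, and 88 of the WT UMIs were in 5 cells, so no order is read from Cd69. Of the 13 genes of the list with at least 100 UMIs, Cd6, an adhesion receptor that tunes TCR signals, was past 1.5-fold on the higher side (133 and 268 UMIs, 0.71) and Ikzf2 on the lower. Over all genes 2.87% were past it on the higher side and 1.36% on the lower. Such counts in short lists are not read as a result, here or in the lists below. Egr1, a transcription factor made within minutes of TCR signalling, had 182 and 175 UMIs (-0.35, -0.66 to -0.04). Nr4a1, which reports TCR signals, had only 18 and 44 UMIs (0.97), and Nfkbid, an IκB family member, 44 and 22 (-1.28). In the Itm2a-lower part the list's median was 0.55.

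The TCR complex and its proximal kinases had a median of 0.06. None of 19 genes was past 1.5-fold, beside 2.87% higher and 1.36% lower over all genes. Cd3e was at 728 and 1015 UMIs (0.18), Cd3d at 1319 and 1544 (-0.07) and Lck, the coreceptor-bound kinase, at 512 and 624 (-0.01). Cd2, an adhesion and costimulatory receptor, had 512 and 913 UMIs (0.54, 0.38 to 0.70), against 0.35 in the Itm2a-lower part and 0.02 in clusters 5 and 9. Ptpn6, the phosphatase SHP-1 that dampens TCR signals, had 91 and 167 UMIs (0.58, 0.20 to 0.97). Trbc2 was at 4861 and 5593 CPM (0.20) and Trbc1 at -0.03.

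Coreceptors and lineage factors had a median of -0.01. None of 14 was past 1.5-fold, beside 2.87% higher and 1.36% lower over all genes. Cd4 had 174 UMIs in WT and 307 in KO (0.52, 0.25 to 0.80), while Cd8a had 320 and 359 (-0.13, -0.35 to 0.09) and Cd8b1 446 and 516 (-0.08, -0.27 to 0.10). Cd4 was higher in the KO library by 0.52 in the Itm2a-lower part, 0.62 in clusters 5 and 9 and 0.56 in cluster 7 as well. Zbtb7b, which encodes ThPOK and commits cells to the CD4 lineage, was sparse, at 35 and 29 UMIs, as was Runx3 of the CD8 lineage, at 39 and 44. Gata3 had 153 and 232 UMIs (0.30), Tox, needed for the CD4 lineage, 487 and 580 (-0.04), and Satb1, a chromatin organiser of thymocytes, 3023 and 3553 (-0.06). Among 5 genes of the CD4 lineage list with at least 20 UMIs only Ctsl was past 1.5-fold. Ctsl was higher in clusters 0 to 2 than in these cells and was lower in KO there too. It is therefore not read as a sign of the CD4 lineage. The 3 measured CD8 lineage genes were between -0.13 and -0.08. DP genes had a median of 0.00, with Rag1 at 97 and 135 UMIs (0.18, -0.20 to 0.57).

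Of 8 genes of immature SP cells and medullary entry with at least 100 UMIs, Ccr4, a chemokine receptor of newly selected cells, was past 1.5-fold, with 42 UMIs in WT and 92 in KO (0.83, 0.30 to 1.40). The 12 genes of the list with at least 20 UMIs ran from -0.53 to 2.03, 7 of them above 0, and the highest was P2rx7 on 3 and 17 UMIs. The median of the list was 0.01, beside 0.55 in the Itm2a-lower part, and -0.24 when cells were thinned to 2000 UMIs. Ccr9 had 1238 and 1618 UMIs (0.09, -0.02 to 0.20), and Ccr7 69 and 78 (-0.12, -0.60 to 0.37). In the list of late SP genes 2 of 19 genes with at least 100 UMIs were past 1.5-fold, both higher, and its median was 0.08. They were Klf2 and Gimap3, a GTPase of lymphocyte survival with 48 and 106 UMIs (0.84). Over all genes 2.87% were higher and 1.36% lower, and the counts of these 2 short lists are not read as results. Il7r had 242 and 242 UMIs (-0.29, -0.56 to -0.03), and Cd52 1979 and 2511 (0.05). Itgb7, an integrin chain of gut homing, had 14 and 44 UMIs (1.32, 0.46 to 2.34), and Foxo1, an activator of Klf2, 26 and 50 (0.64).

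Actin regulators, the genes nearest to Cdc42 in function, had 21 of 30 above 0, all 21 also above the median of all genes, and a median of 0.10. None of 29 was past 1.5-fold, beside 2.87% higher and 1.36% lower over all genes. The GTPases Rhoa and Rac1 had 365 and 611 UMIs (0.45, 0.26 to 0.64) and 207 and 320 UMIs (0.33, 0.08 to 0.59). Ezr, the membrane-actin linker ezrin of microvilli, had 217 and 318 UMIs (0.26, 0.00 to 0.51), and its relative Msn 463 and 625 (0.14, -0.04 to 0.31). With cells thinned to 2000 UMIs the log2 ratio of Ezr was 0.02. Pak2, a kinase bound by active Cdc42, had 207 and 314 UMIs (0.31), Was, its WASP target, 99 and 109 (-0.16), and Actb 10075 and 12956 (0.07).

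The Arp2/3 complex, which nucleates branched actin, had a median of 0.11 over 9 genes, from -0.16 for Arpc2 to 0.25 for Arpc5. ESCRT genes, which pinch off membrane buds, had a median of 0.07 over 23 genes, with Chmp2a at 104 and 186 UMIs (0.54, 0.19 to 0.90). Integrins and adhesion genes had a median of 0.16, with Tln1, the integrin activator talin, at 267 and 422 UMIs (0.36, 0.14 to 0.59). These 3 lists held 9, 14 and 15 genes with at least 100 UMIs, and none was past 1.5-fold. Over all genes 2.87% were higher and 1.36% lower, and the absence is not read as a result. In the Itm2a-lower part and cluster 7, Rhoa was at 0.63 and 0.91 and Ezr at 0.91 and 1.11.

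Survival and death genes had the lowest median, -0.19 over 18 genes, with 7 above 0. Bcl2, the survival factor, had 355 UMIs in WT and 447 in KO (0.04, -0.17 to 0.24), and Bcl2l11, which encodes the death promoter Bim, 127 and 132 (-0.24). Casp8, the caspase of death receptors, was past 1.5-fold, at 61 and 128 UMIs (0.77, 0.32 to 1.24), and Fas had 47 and 84 (0.54, 0.01 to 1.09). The median of this list turned to 0.08 when cells were thinned to 2000 UMIs and to 0.55 in cells with Cd4 and no Cd8 UMI. Genes of IL-7 and cytokine signalling had a median of -0.02, with Socs1 at 118 and 170 UMIs (0.23) and Jak1 at 408 and 492 (-0.02).

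Immediate early genes, which also answer to handling of the tissue, had a median of -0.07, and 0.05 when cells were thinned to 2000 UMIs. Jund had 366 and 319 UMIs (-0.49, -0.71 to -0.27) and Junb 94 and 87 (-0.41), Fos was nearly unread at 5 and 11, and Klf6 had 15 and 53 (1.49, 0.68 to 2.46). Ier5 was the 1 of 11 genes with at least 100 UMIs past 1.5-fold, beside 2.87% higher and 1.36% lower over all genes. Regulatory T and agonist selection genes had a median of 0.13 over 11 genes, which was -0.12 over 6 genes when cells were thinned to 2000 UMIs and 0.41 with all cells of the finer group. Foxp3 was at 0 UMIs in both libraries, and Rel, the NF-κB subunit, had 97 and 82 UMIs (-0.54, -0.98 to -0.10). Glycolysis genes had a median of 0.14 over 16, with Ldha at 319 and 445 UMIs (0.18). None of the 10 glycolysis genes with at least 100 UMIs was past 1.5-fold.

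MHC class I presentation genes had 15 of 19 above 0 and a median of 0.11, where the Itm2a-lower part was at -0.35 and cluster 7 at -0.25. H2-D1 had 262 UMIs in WT and 347 in KO (0.11), B2m, the light chain, 348 and 439 (0.04), and H2-K1 66 and 102 (0.33, -0.13 to 0.80). Interferon response genes had a median of 0.10 over 29 genes, with values from -0.93 to 1.01. The Itm2a-lower part was at -0.71, cluster 7 at -0.53 and clusters 5 and 9 at 0.64. Of 9 interferon genes with at least 100 UMIs, 2 were past 1.5-fold, both higher, beside 2.87% higher and 1.36% lower over all genes. So few genes are not read as a result about the list. Ifi27l2a had 85 and 186 UMIs (0.83, 0.46 to 1.22), in 23.9% and 29.4% of cells, with 83 of the KO UMIs in 5 cells. Zbp1, a sensor of nucleic acids, had 37 and 82 UMIs (0.84, 0.28 to 1.45). Isg15 was low, at 22 and 45 UMIs (0.72, -0.03 to 1.54).

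**Figure D4:**
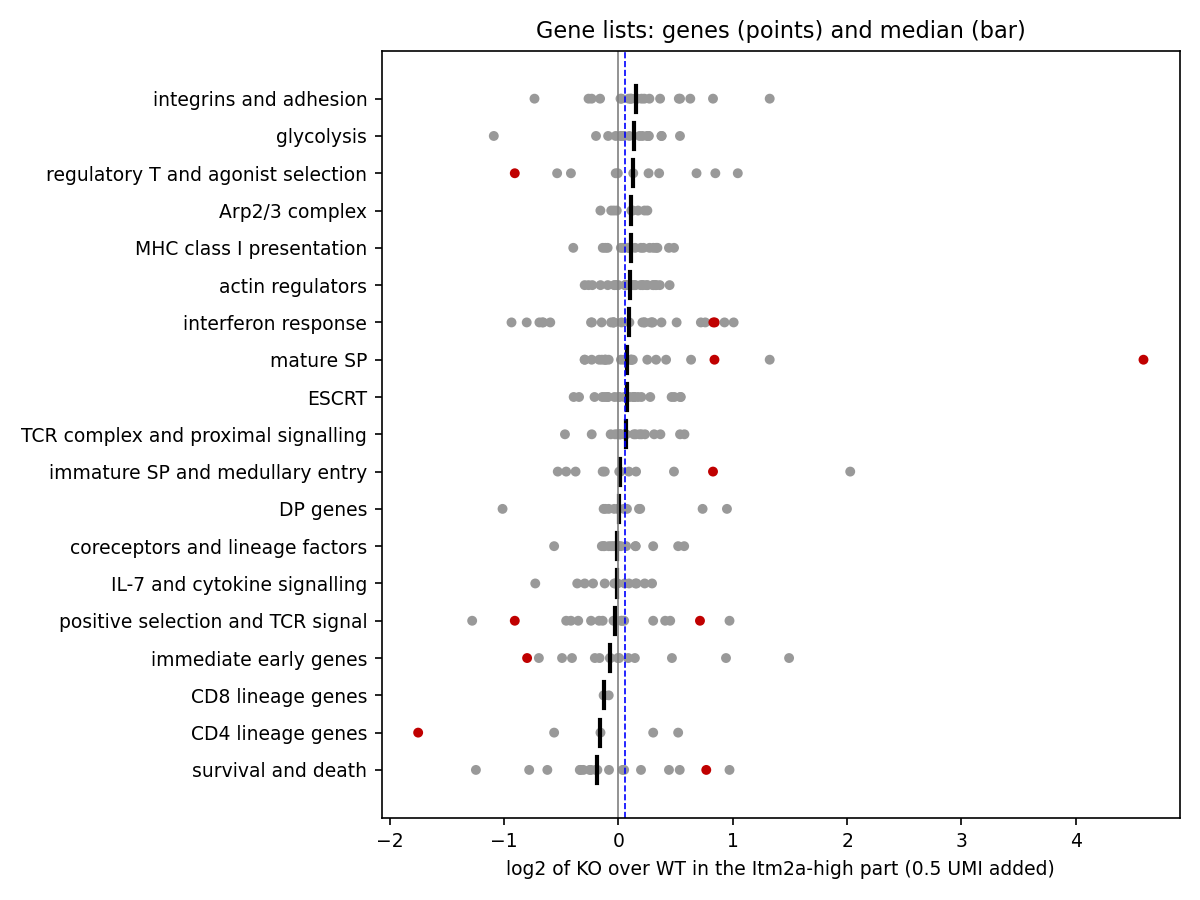
Log2 ratio of KO over WT in the Itm2a-high part (x axis) for the genes of 19 lists with at least 20 UMIs; each point is a gene, red where it has at least 100 UMIs and is past 1.5-fold, black bars are list medians, and the dashed blue line is the median of all genes (0.06). List medians lie between -0.19 (survival and death) and 0.16 (integrins and adhesion), and Klf2 at 4.59 stands apart from the other late SP genes.

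Ribosomal protein genes were mostly lower in KO, and they bear on the scaling. Of 82 genes 72 were below 0, with a median of -0.26, and they took 18.9% of UMIs in WT and 16.2% in KO. The same direction was found in the Itm2a-lower part (-0.44), clusters 5 and 9 (-0.11) and cluster 7 (-0.49). Of 13 mitochondrial genes 12 were above 0, with a median of 0.28.

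Several defining markers of other cells had no UMI in the Itm2a-high part, while others were read in many of its 302 cells. Cd79a and Pax5 of B cells, H2-Aa, H2-Ab1, Itgax and Flt3 of myeloid and dendritic cells, Zbtb16 and Fcer1g of innate-like cells and Krt5 and Krt8 of epithelium had 0 UMIs in both libraries, where 0 allows up to 4.08 CPM in WT and 3.33 CPM in KO. Summed levels of the B cell list were 110 and 139 CPM, of the macrophage and dendritic list 162 and 201 CPM, of the gamma-delta list 46.2 and 58.7 CPM, of the innate-like list 12.2 and 21.1 CPM, of the epithelial and stromal list 58.5 and 74.3 CPM, and of the erythroid list 8.16 and 4.43 CPM. Each except the erythroid list was higher in KO. The innate-like list rested on 9 and 19 UMIs, and 9 of the KO UMIs were Xcl1 in 1 cell. Ighm (71 and 105 UMIs) and Cst3 (106 and 132) made up most of the first 2 lists, and were read in 100 and 156 cells. Pecam1, an endothelial adhesion gene of the epithelial and stromal list, had 39 and 62 UMIs in 80 cells. Trdc, the constant gene of the TCR δ chain, had 11 UMIs in WT and 49 in KO, 14 of the latter in 1 cell, while Trgc1 had 6 and 0. A single KO cell held all 10 Lyz2 UMIs, and 18 Apoe UMIs were in 1 cell. Of the dividing-cell markers Mki67 had 1 and 3 UMIs and Top2a 3 and 20, while Stmn1 and Pcna were more abundant, at 329 and 466 and at 58 and 80 UMIs. Without the 13 WT and 23 KO cells that carried at least 3 of the markers of other lineages, 71 genes were more than 1.5-fold higher and 40 lower among 2376.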

How the data were processed

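Single-cell libraries of whole thymus, 1 per genotype, were made with a 10x Genomics Chromium 3′ kit. The submitters' processing notes name Cell Ranger 3.0.2, STAR, Seurat and the mm10 genome. The authors deposited raw UMI counts per gene and cell (20282 genes, 13683 cells) and a table of Seurat cluster numbers. The mitochondrial percent in that table is 0 throughout and was recomputed from the counts. Each cell name carries WT or KO, which gave its library. No columns were left out as belonging to other samples (0).

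UMIs were summed per cell group and library, divided by the group's total and given as CPM (Python 3.11.15, scipy 1.17.1). Log2 ratios of KO over WT took 0.5 UMI added to each sum, with conditional binomial intervals; levels have Poisson and shares Clopper-Pearson intervals. The scripts were tested on simulated data. Depth sets the precision: WT held 29706197 UMIs and KO 37920214.

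The cells, the gene lists and the comparisons were chosen with earlier results of these data known. Named genes were Cdc42, the marker genes Itm2a, Cd69 and Cd5, genes of the lists (first those past 1.5-fold with at least 100 UMIs, then those that define the list), and the 10 highest and 10 lowest for KO over WT and for the Itm2a-high over the Itm2a-lower part. Alternatives were TMM factors (edgeR 4.0.16), DESeq2 1.42.0 size factors, totals without ribosomal protein and mitochondrial genes, means over cells, thinning, other minimum counts, 1 UMI added, other denominators, subsets of cells and doublets left out. Scrublet's automatic threshold marked 2 WT and 0 KO cells and was taken as failed, so the 6% highest scores were left out instead (367 and 455 cells, 16 and 15 of them in the Itm2a-high part). Leaving out cells with 3 or more markers of other lineages was added after the data were seen. Positions are from GENCODE vM21 (GRCm38) and promoters from RefSeq (GRCm38.p6), while the annotation behind the counts is not given in the sources used here. Values of 2 genes of the lists are not reported here.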

Additional observations from a re-analysis of the deposited data

Results flagged for a closer look

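For 9 named genes the difference between libraries in the Itm2a-high part was opposite in direction to that in the Itm2a-lower part. Both counting intervals were clear of 0 and, on the higher side, also of the part's median over all genes (0.06 and 0.17). Only named genes with at least 100 UMIs in each part were screened. The share of such genes over all genes was not computed, so the count of 9 is not read as a result. With 1 library per genotype the difference between the parts was not tested. The log2 ratio of KO over WT was -0.14 in the Itm2a-high part and 0.54 in the Itm2a-lower part for Itm2a, -0.46 and 0.56 for Cd69, -0.80 and 0.83 for Nrgn, -0.78 and 0.59 for Gtf2b, and -0.54 and 0.64 for Rel. These signs are of summed values. No order is read for Cd69, which was read in 48.6% of WT and 48.8% of KO cells with 88 of the WT UMIs in 5 cells, or for Nrgn, which turned to 0.71 without the 5% of cells with most UMIs. The other 4 had the opposite signs: Ifi27l2a was at 0.83 and -1.04, Zbp1 at 0.84 and -0.43, Ccnd2, the cyclin D2 gene, at 0.55 and -0.40, and Tmsb4x, the actin-binding thymosin β4, at 0.11 and -0.04. The line between the parts was drawn by clustering on the counts of these same cells, and 109 of 112 WT Nrgn UMIs were in 5 cells. For Ccnd2, 41 of 70 WT and 74 of 126 KO UMIs were in 5 cells, and for Ifi27l2a 83 of 186 KO UMIs.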

How the results depend on the processing

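No paired analysis was possible because each genotype has 1 library, and no replicate could be left out. The numbers of genes more than 1.5-fold higher and lower in KO (80 and 38 of 2787) stayed within 1.5 times under the scalings (61 to 85 higher, 44 to 54 lower), without doublets (68 and 41), without the 5% of cells with most UMIs (61 and 44), without cells over 10% mitochondrial UMIs (81 and 40) and with 1 UMI added (78 and 38). They became 23 and 13 among 943 genes with cells thinned to 2000 UMIs and 19 and 17 among 457 in cells with Cd4 and no Cd8 UMI. They became 798 and 426 with at least 20 UMIs, 15 and 6 with at least 200, and 3509 and 2581 with no minimum, where counting error alone passes the fold. With all cells of the finer group, those of cluster 5 included, 25 genes were lower. The ratio of shares, 0.910, was 1.71 over cluster 6 and 1.28 over clusters 6 and 7. Shares with both coreceptors were 19.9% in WT and 23.8% in KO at 2000 UMIs per cell and 27.0% and 32.9% at 3000, those with neither 31.2% and 24.4%, then 24.1% and 18.7%, and those of KO with Cd8 only 32.5% and 30.3%. Of 480 values of 40 genes, 450 lay within the counting interval of the main ratio and 25 lay outside it. The other 5 changed sign in genes that were past 1.5-fold. Nrgn turned to 0.086 when thinned and 0.71 without the cells with most UMIs. In the cells with Cd4 and no Cd8 UMI, Emp3 turned to -0.92, Gm12840 to 1.94 and Prkacb to 0.33. Sign changes of genes not past 1.5-fold were not counted among the 5. In those cells Cdc42 was at 0.03 and Il7r at 0.10, and Ccr9 was at -0.015 when thinned. The cause of these was not tested. Of 246 list medians 218 kept within the spread used and 28 moved. Klf2 ranged from 3.19 to 4.89 and Ctsl from -2.12 to -1.34 over all alternatives.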
